A study of Mus musculus with 69 samples.

Results

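The genes described here encode 7 subunits of the GABA-A receptor, Gabra2, Gabra3, Gabra4, Gabra5, Gabrb1, Gabrb2 and Gabrd, taken by symbol from the 17634 genes of a table of ribosome-bound mRNA of mouse cortex. All 7 were in the table, and all passed the filter on low counts in every comparison. In RiboTag mice, Cre recombination puts an HA tag on the ribosomal protein RPL22 of 1 cell class, and precipitation of the tag recovers the mRNA on the ribosomes of that class together with some RNA of other cells. Cre was driven by Pvalb, the gene of parvalbumin (PV), which marks fast-spiking inhibitory interneurons, or by Camk2a, a kinase gene of excitatory cortical neurons. The 69 libraries came from primary visual (V1) or primary somatosensory (S1) cortex of mice 70 to 100 days old, either wild type (WT) or lacking Fmr1 (KO), whose product FMRP is an RNA-binding protein lost in fragile X syndrome. All groups carried the tagged RPL22 and a Cre driver, and the classes came from different animals.

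Each of the 4 PV groups (WT and KO, V1 and S1) had 10 libraries. Camk2a libraries numbered 8 and 8 in WT V1 and S1, and 6 and 7 in KO V1 and S1. Both sexes were used. Of 37 animals, 32 gave a library of both areas. Library totals ran from 27.6 to 49.1 M estimated counts, and the lowest count of a member in a library was 274. Levels are counts scaled to the library total (CPM). The comparisons between classes, areas and genotypes use the same libraries, so they are not independent of each other.

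The GABA-A receptor is a pentameric chloride channel that carries most fast inhibition in cortex. Alpha and beta subunits form the binding sites for GABA. A gamma subunit in the pentamer favours synaptic receptors, and a delta subunit in its place gives extrasynaptic receptors that carry a steady, tonic current. The alpha subunit sets much of the receptor's location and pharmacology: alpha2 and alpha3 receptors are largely synaptic, alpha4 pairs with delta in many forebrain neurons, and alpha5 receptors are mainly extrasynaptic and are enriched in hippocampus and deep cortical layers.

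The libraries followed their labels in most respects. Fmr1 lay between 6.38 and 16.1 CPM in the KO groups and between 38.6 and 91.3 CPM in the WT groups, with no overlap. The summed level of 12 PV markers had group medians of 10520 to 11750 CPM in PV and of 299 to 413 CPM in Camk2a libraries. The 10 excitatory markers had medians of 1359 to 1667 CPM in PV and 13170 to 14380 CPM in Camk2a libraries, so PV libraries held excitatory mRNA at a low level. On a score of 100 genes that differed between the areas in KO Camk2a libraries, members left out, 5 of 40 PV libraries lay on the side of the other area: both libraries of P22 (WT) and of P9 (KO), and the V1 library of P24 (KO). The 6 libraries of the Camk2a animals C3, C18 and C19 held 18.8 to 112 CPM of Pvalb, against 1.80 to 17.2 CPM in the other 23. The S1 library of C24 (Camk2a WT) is the only one of its labelled batch, and the area difference within this animal ran against the median of its group for Gabra2, Gabra3, Gabra5, Gabrb1 and Gabrd. Member results whose call changes without these animals are given both ways. A Y-linked level went against the labelled sex in 3 of 37 animals.

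The members lie on 5 chromosomes (mm10, GENCODE M21). Gabra2 (chr5:70957597-71095849, minus strand), Gabra4 (chr5:71569749-71658308, minus strand) and Gabrb1 (chr5:71658113-72149037, plus strand) form a cluster. Gabra4 and Gabrb1 stand head to head: their spans overlap by 196 bases and their exons share 46 bases, and since the library kit does not separate strands, reads of that stretch cannot be told apart. Gabra5 is at chr7:57407672-57510059 (minus strand), Gabrb2 at chr11:42419757-42629028 (plus strand), Gabrd at chr4:155384980-155398112 (minus strand) and Gabra3 at chrX:72432681-72656848 (minus strand). The counts cover whole genes.

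Promoter windows, from 250 bases before to 50 bases after a RefSeq start (GRCm38.p6), were matched by symbol for 6 members. Gabrd was not among them. The 4 below belong to the members of these 6 that differed most between the cell classes: Gabra2, Gabrb1 and Gabra5 were lower in PV and Gabrb2 was higher. They read 5′ to 3′ on the gene's strand, and capitals mark CpG and, in Gabrb2, the letters TATAAA.
Gabra2, chr5:71095800-71096099, minus strand: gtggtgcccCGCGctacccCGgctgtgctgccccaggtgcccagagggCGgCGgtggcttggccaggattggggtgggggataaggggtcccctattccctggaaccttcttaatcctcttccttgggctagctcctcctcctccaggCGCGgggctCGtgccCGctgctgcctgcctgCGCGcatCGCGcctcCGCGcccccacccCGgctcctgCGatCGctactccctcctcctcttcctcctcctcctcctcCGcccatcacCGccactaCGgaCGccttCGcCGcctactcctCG
Gabrb1, chr5:71657671-71657970, plus strand: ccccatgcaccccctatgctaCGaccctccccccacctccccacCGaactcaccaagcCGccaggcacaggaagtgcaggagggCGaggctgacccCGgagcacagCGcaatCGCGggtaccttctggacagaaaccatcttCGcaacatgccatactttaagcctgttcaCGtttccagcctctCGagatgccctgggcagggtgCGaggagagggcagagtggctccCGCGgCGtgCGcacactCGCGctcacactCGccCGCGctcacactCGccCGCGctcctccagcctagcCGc
Gabra5, chr7:57510010-57510309, minus strand: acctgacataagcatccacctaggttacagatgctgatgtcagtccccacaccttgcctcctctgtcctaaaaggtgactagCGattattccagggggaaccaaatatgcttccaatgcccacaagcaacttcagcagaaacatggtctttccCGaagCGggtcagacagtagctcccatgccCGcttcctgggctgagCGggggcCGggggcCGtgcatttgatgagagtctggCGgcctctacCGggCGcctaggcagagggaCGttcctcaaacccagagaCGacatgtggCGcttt
Gabrb2, chr11:42420190-42420489, plus strand: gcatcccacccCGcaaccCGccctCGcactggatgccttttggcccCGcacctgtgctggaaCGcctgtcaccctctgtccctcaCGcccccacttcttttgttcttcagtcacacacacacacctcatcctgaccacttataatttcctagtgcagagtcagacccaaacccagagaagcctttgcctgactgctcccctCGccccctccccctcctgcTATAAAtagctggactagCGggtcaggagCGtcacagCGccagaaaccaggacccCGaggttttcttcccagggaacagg

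The printed Gabra2 and Gabrb1 windows held 25 CpG each, more than 81.6% of the 32851 windows of all genes, whose median was 7. A second Gabrb1 window held 9. Gabra5 held 13, Gabra4 12, the printed Gabrb2 window 11 and the other Gabrb2 windows 9 each. Both Gabra3 windows held 0 CpG, as did 5.43% of all windows. TATAAA, searched on both strands, was present in 13.6% of all windows; in the Gabrb2 window it begins 30 bases before the start, and in the Gabra3 windows it is on the opposite strand. GGGCGG, also searched on both strands and able to overlap a CpG, was present in the Gabra2, Gabra4 and printed Gabrb2 windows and in 35.7% of all windows. A match of letters is not a site in use.

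To set genes beside each other, CPM was divided by the length of each gene's merged exons. That length was 13.84 kb for Gabrb1 and from 2.88 kb (Gabrd) to 7.64 kb (Gabra2) for the others, so the order depends on the annotation. In PV neurons the delta subunit led. Gabrd had a mean of 78.7 ± 5.4 (SD) CPM per kb in WT V1 and 94.0 ± 8.91 in WT S1 (n = 10 each), and its range lay above that of every other member in all 4 PV groups. Gabrb2 followed at 34.1 ± 5.5 and 33.2 ± 8.88 CPM per kb, with a range that overlapped that of Gabra3 at 27.9 ± 1.19 and 26.9 ± 1.32. Gabra4 was next in all 4 PV groups, at 18.1 ± 1.64 and 17.0 ± 2.11 in WT, apart from its neighbours on both sides. Gabra5, Gabra2 and Gabrb1 were the lowest in all 4 PV groups, between 2.32 and 5.44 CPM per kb in WT, and neighbours in the order overlapped except Gabra5 and Gabra2 in KO S1.

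In Camk2a neurons the order was flatter. Gabra3 and Gabrd were the top pair in all 4 groups. In WT V1 Gabra3 had a mean of 29.0 ± 1.36 CPM per kb and Gabrd 28.5 ± 3.74 (n = 8), with overlapping ranges, and in WT S1 Gabrd had 37.4 ± 6.88 and Gabra3 30.9 ± 1.98. Gabra4 (19.8 ± 1.85), Gabra5 (19.1 ± 7.6) and Gabrb2 (18.9 ± 3.19) had overlapping ranges in WT V1. Gabra2 (11.9 ± 3.37) and Gabrb1 (9.77 ± 0.631) were the lowest there. The same pair was lowest in the other Camk2a groups. Without division by length the place of Gabrb1 changed: its mean in Camk2a WT V1, 135.2 CPM, was the highest of the members, ahead of Gabra4 at 120.6 CPM.

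**Figure D1:**
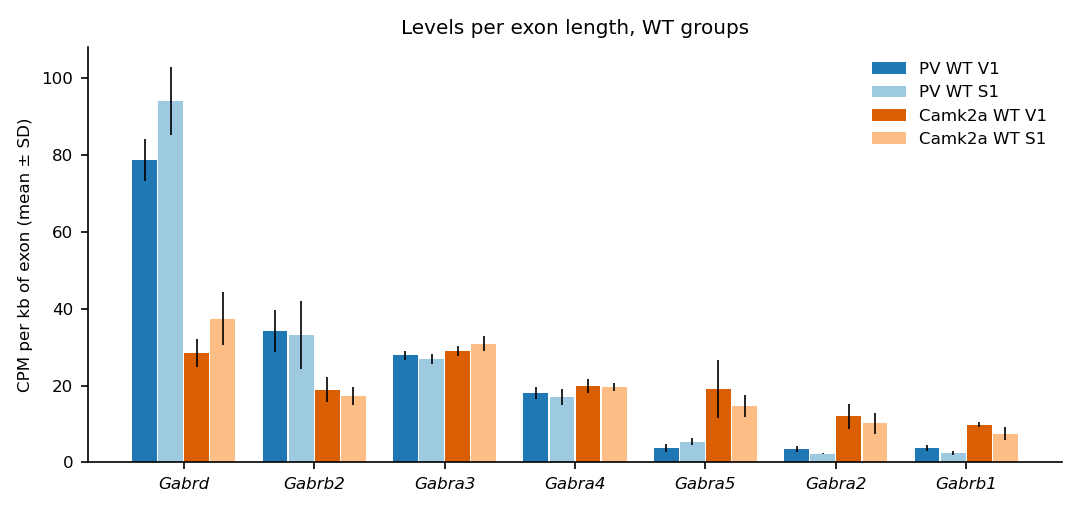
Mean CPM per kb of merged exon (bars, with SD) of the 7 subunits in the 4 WT groups. Gabrd stands above all other members in PV libraries, at 78.7 and 94.0. Gabra5, Gabra2 and Gabrb1 have the shortest bars in PV libraries, each shorter than its bars in Camk2a libraries.

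The plot of CPM by library shows the members in every group. For Gabra2, Gabra5, Gabrb1, Gabrb2 and Gabrd, each class difference exceeded every area and genotype difference of that gene on the log2 scale.

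**Figure D2:**
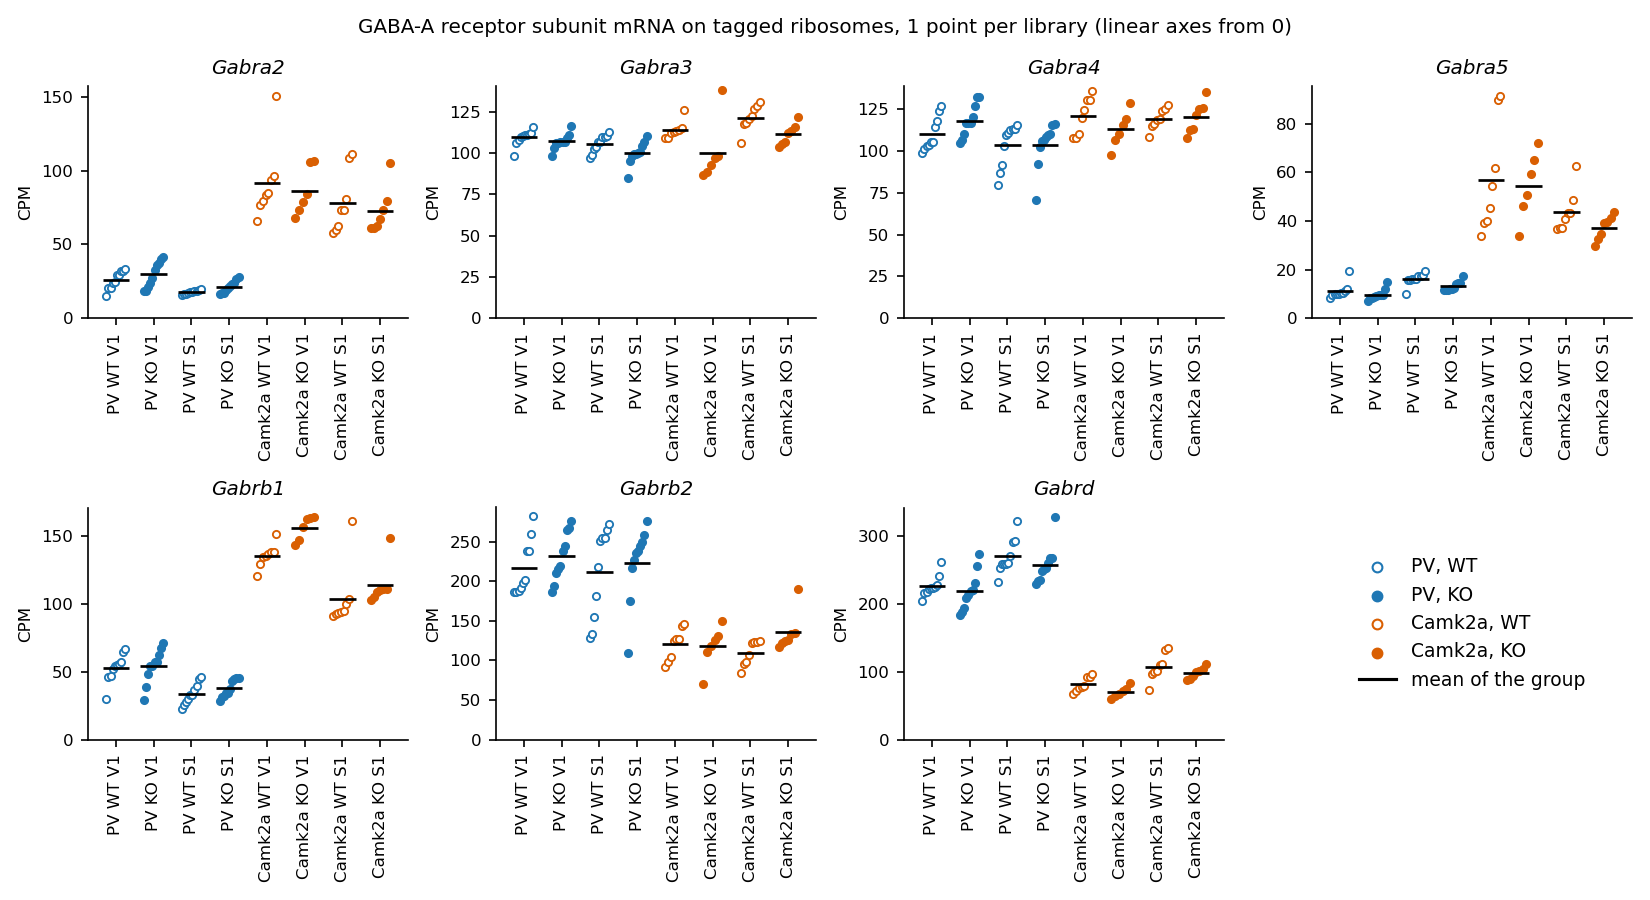
CPM (linear axes from 0) of each subunit in each of the 69 libraries, by class, genotype and area, with the group mean as a bar. Gabra2, Gabra5, Gabrb1 and Gabrd separate PV from Camk2a libraries without overlap within every area and genotype, while Gabra3 and Gabra4 lie on a similar level in all 8 groups.

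PV and Camk2a neurons were compared within each genotype and area. Log2 fold changes are PV over Camk2a, from edgeR's quasi-likelihood test. Benjamini-Hochberg adjustment covered all genes tested, and called means an adjusted p below 0.05. Of the 7 members, 7, 7, 5 and 7 were called, in the order WT V1, WT S1, then KO in V1 and S1. The share called among all genes was 77.3, 77.2, 74.3 and 77.7% in that order, so being called says little here and the sizes and directions matter more. The median log2 difference of the members was -0.22, -0.27, -0.04 and -0.33, against 0.03, 0.02, 0.04 and 0.03 over all genes.

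Gabra5, an alpha subunit of mainly extrasynaptic receptors, showed the largest class difference of the members in V1. In WT V1, PV libraries had a lowest, median and highest value of 8.18, 10.2 and 19.5 CPM, and Camk2a libraries 33.6, 49.9 and 91.3 CPM. The groups did not overlap, and the log2 difference was -2.53 (SE 0.22, adjusted p = 7.43e-09). In WT S1 the corresponding values were 9.8, 16.2 and 19.3 CPM in PV and 36.7, 42.0 and 62.6 CPM in Camk2a, a log2 difference of -1.47 (SE 0.12). KO libraries gave -2.60 (SE 0.16) in V1 and -1.60 (SE 0.08) in S1, again without overlap.

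Gabra2, a synaptic alpha subunit also found at the axon initial segment of pyramidal cells, was lower in every PV library than in any Camk2a library of the same area and genotype. WT V1 held 14.9, 27.1 and 33.5 CPM (lowest, median, highest) in PV against 65.7, 84.1 and 151 CPM in Camk2a, a log2 difference of -1.89 (SE 0.17, adjusted p = 1.53e-08). WT S1 held 16.02, 17.8 and 19.6 CPM in PV against 57.4, 73.2 and 111 CPM in Camk2a, a difference of -2.19 (SE 0.13). KO libraries held 18.1 to 41.2 CPM in PV V1 and 16.4 to 27.6 CPM in PV S1, against 68.0 to 106 CPM and 60.9 to 105 CPM in Camk2a, with differences of -1.77 and -1.90. No PV value reached the Camk2a range in either area.

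Gabrb1, a beta subunit and the lowest member per length in Camk2a neurons of WT, though not in plain CPM, was also lower in PV. PV WT V1 libraries held 29.6, 54.4 and 67.0 CPM, and Camk2a WT V1 libraries 120, 136 and 151 CPM, with a log2 difference of -1.42 (SE 0.11, adjusted p = 3.29e-10). The differences were -1.66 in WT S1, -1.68 in KO V1 and -1.71 in KO S1. In none of the 4 comparisons did the ranges meet.

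The opposite direction held for Gabrd and Gabrb2. Gabrd, the delta subunit of tonic receptors, ran from 204 to 262 CPM (median 224) in PV WT V1 and from 67.6 to 96.5 CPM (median 78.4) in Camk2a WT V1. Its log2 differences were 1.37 (SE 0.075, adjusted p = 1.75e-12) and 1.29 in WT V1 and S1 and 1.52 and 1.27 in KO V1 and S1, without overlap. Gabrb2, a beta subunit above Gabrb1 per length in both classes, ran from 186 to 282 CPM (median 200) in PV WT V1 and from 91.8 to 146 CPM (median 126) in Camk2a WT V1. Its differences were 0.82 (SE 0.11, adjusted p = 1.22e-06) and 0.87 in WT V1 and S1 and 0.86 and 0.60 in KO V1 and S1. Its ranges overlapped in KO S1 alone of the 4, where PV libraries ran from 110 to 276 CPM and Camk2a libraries from 118 to 190 CPM.

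Gabra3 and Gabra4, an X-linked synaptic and a delta-associated alpha subunit, were close to equal in both classes. PV WT V1 libraries held 98.2 to 116 CPM of Gabra3, and Camk2a WT V1 libraries 109 to 126 CPM. The log2 differences of Gabra3 were -0.17, -0.27, -0.04 and -0.27, and those of Gabra4 -0.22, -0.27, -0.05 and -0.32, in the same order of WT V1 and S1, then KO V1 and S1. The KO V1 values were not called (adjusted p = 0.682 for Gabra3 and 0.577 for Gabra4), and the ranges overlapped in all 8 cases. These calls of the 7 members did not change under any alternative run.

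**Figure D3:**
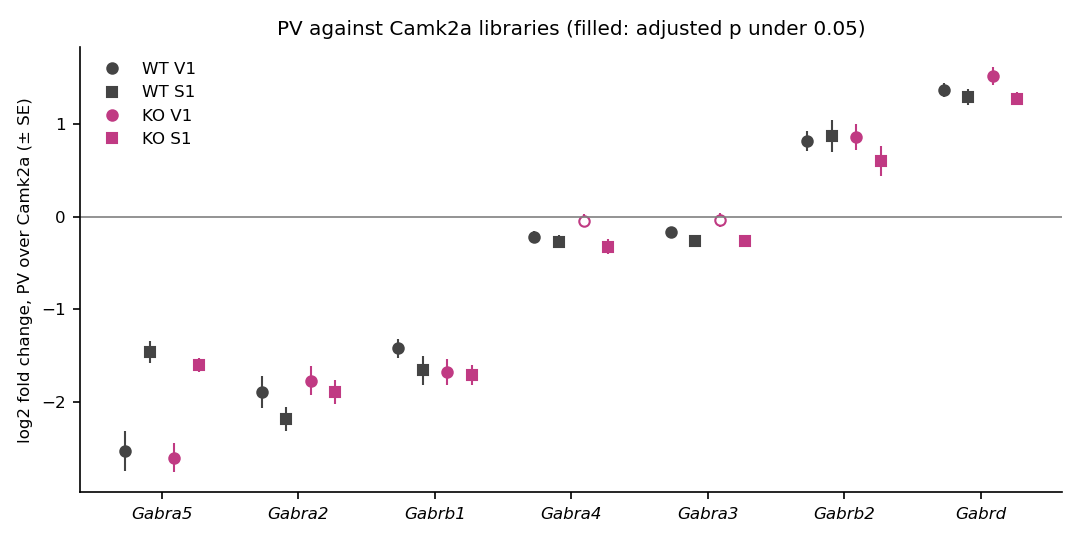
Log2 fold change (PV over Camk2a, with SE) of each subunit in WT and KO, V1 and S1, filled where the adjusted p was under 0.05. Gabra5, Gabra2 and Gabrb1 lie below 0, Gabrb2 and Gabrd above, Gabra3 and Gabra4 near 0, and Gabra5 alone is split by area, near -2.5 in V1 and near -1.5 in S1.

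The excitatory mRNA in the PV libraries bears on the low members. In WT V1 the PV mean as a share of the Camk2a mean was 9.49% for Slc17a7, the vesicular glutamate transporter gene, 6.46% for Neurod6, and 17.3% for Camk2a itself. In WT S1 the Camk2a share was 12.6%. The same share was 19.5% for Gabra5, 28.6% for Gabra2 and 39.0% for Gabrb1. In WT S1 it was 6.12% for Slc17a7, against 37.0% for Gabra5, 22.6% for Gabra2 and 32.8% for Gabrb1. In KO V1 the share was 17.8% for Gabra5 and 15.3% for Camk2a, so Gabra5 in V1 lay near the share of Camk2a. Markers of non-neuronal cells also differed by class, in comparisons where 74.3 to 77.7% of all genes were called. Of 8 astrocyte markers, 6 were higher and 2 lower in PV in each of the 4 class comparisons. All 6 microglia markers were higher in each (median 2.30 in WT V1), as were 6 or 7 of 7 oligodendrocyte markers, 3 or 4 of 4 precursor markers and 4 or 5 of the vascular markers. The part of such RNA in the subunit levels was not tested.

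Of the remaining subunit genes listed, 4 were in the table, and 2 or 3 of them passed the filter in a class comparison. Gabrg3, a gamma subunit, was higher in PV (log2 difference 1.59, SE 0.09, in WT V1 and 1.78 in WT S1), and Gabrg1 was lower (-1.09 and -0.81), as in KO. Gabrr2, a rho subunit, passed the filter on low counts in KO V1 only and was called there (1.99, SE 0.52). In the other class comparisons its counts were too low to be tested. Among 21 measured genes of receptor anchoring and trafficking, 8 were higher and 8 lower in PV in WT V1, with a median of -0.02. Arfgef2 (0.72), an exchange factor of membrane traffic, Rdx (0.56), the radixin that anchors alpha5 receptors, and Iqsec3 (0.67), a gephyrin-binding exchange factor, had the smallest p among the higher ones. Hap1 (-1.17), a receptor recycling adaptor, and Dag1 (-0.44), dystroglycan, were among the lower ones with the smallest p. In WT S1 9 were higher and 7 lower. KO V1 gave 6 higher and 7 lower, and KO S1 9 and 7. Those called were 16, 16, 13 and 16 of 21 in WT V1, WT S1, KO V1 and KO S1. Beside 77.3, 77.2, 74.3 and 77.7% of all genes, these counts say little about the list.

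V1 was compared with S1 within each class and genotype, and positive differences mean a higher level in V1. The main fit left out the animal, so the V1 and S1 libraries of an animal entered it as if independent. Of the 7 members, edgeR called 4 in WT PV, 3 in KO PV, 0 in WT Camk2a and 3 in KO Camk2a. In WT Camk2a, Gabrb1 and Gabrd, 2 members, had an unadjusted p under 0.05, and DESeq2 called both. Among all genes the share called was 20.6, 7.56, 0.359 and 13.1%. These shares rest on few animals: without P9, P22 and P24 the genes called rose from 3291 to 5060 in WT PV and from 1218 to 3479 in KO PV, and in WT Camk2a 56 became 3405 without C24 and 0 without C3, C18 and C19. With the animal as a block, 4243 genes were called in WT PV (3291 without the block), 0 in KO PV, 7 in WT Camk2a and 3277 in KO Camk2a (2058 without the block). The members' medians were 0.02, 0.07, 0.14 and -0.12, and those of all genes were 0.01, 0.01, -0.01 and 0.00.

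Gabrb1 was the higher in V1 in both classes. WT PV libraries held 29.6, 54.4 and 67.0 CPM in V1 and 22.9, 33.0 and 46.2 CPM in S1, a log2 difference of 0.60 (SE 0.14, adjusted p = 0.00832). KO PV libraries gave 0.49 (SE 0.14, adjusted p = 0.0404) and KO Camk2a libraries 0.45 (SE 0.09, adjusted p = 0.00249). WT Camk2a libraries held 120, 136 and 151 CPM in V1 and 91.2, 94.2 and 161 CPM in S1, and the edgeR difference of 0.40 missed the threshold (adjusted p = 0.0591). The highest S1 value there was that of C24, and without that animal the difference was 0.53 (SE 0.05, adjusted p = 2.19e-06). Within animals, V1 exceeded S1 in 9 of 10 WT PV, 7 of 9 KO PV, 6 of 7 WT Camk2a and 6 of 6 KO Camk2a animals, and the 4 exceptions were P22, P9, P24 and C24. Without P9, P22 and P24 the difference was 0.72 in WT PV and 0.69 in KO PV. With the animal as a block, KO PV gave 0.49 (adjusted p = 0.122).

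Gabrd went the other way. It ran from 204 to 262 CPM in V1 and from 233 to 323 CPM in S1 of WT PV libraries, a difference of -0.28 (SE 0.06, adjusted p = 0.00594). KO PV gave -0.27 (adjusted p = 0.0434), KO Camk2a -0.49 (SE 0.08, adjusted p = 5.04e-04) and WT Camk2a -0.38 (adjusted p = 0.0641). Only in KO Camk2a were the areas apart, from 60.2 to 84.1 CPM in V1 against 88.6 to 111 CPM in S1. Without C24 the WT Camk2a difference was -0.47 (adjusted p = 6.81e-04). Within animals, S1 exceeded V1 in 9 of 10 WT PV, 7 of 9 KO PV, 6 of 7 WT Camk2a and 6 of 6 KO Camk2a animals, and P22, P9, P24 and C24 were again the exceptions. With the animal as a block, KO PV gave -0.29 (adjusted p = 0.0778).

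Gabra2 was higher in V1 of WT PV libraries, at 14.9, 27.1 and 33.5 CPM against 16.02, 17.8 and 19.6 CPM in S1 (log2 difference 0.53, SE 0.10, adjusted p = 0.00594). The KO PV difference was 0.42 (adjusted p = 0.0752) and reached 0.54 (adjusted p = 0.0282) without P9, P22 and P24. The Camk2a differences, 0.24 in WT and 0.26 in KO, were not called. With the animal as a block, the KO Camk2a value was 0.23 and was called (adjusted p = 0.0173). Gabra3, Gabra4 and Gabrb2 were called in none of the 4 comparisons, with differences between -0.20 and 0.16. Without C24, Gabra3 was called in WT Camk2a (-0.12, adjusted p = 0.0292). Without C3, it was called in KO Camk2a (-0.27, adjusted p = 0.0308).

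Gabra5 differed between the areas in opposite directions in the 2 classes. In WT PV libraries it was lower in V1, at 8.18, 10.2 and 19.5 CPM against 9.8, 16.2 and 19.3 CPM in S1 (log2 difference -0.58, SE 0.13, adjusted p = 0.00821). The highest V1 and the lowest S1 value were both those of P22. KO PV libraries held 7.14, 9.25 and 14.7 CPM in V1 and 11.7, 12.3 and 17.2 CPM in S1 (-0.47, SE 0.10, adjusted p = 0.0277; -0.50 with the animal as a block, adjusted p = 0.0706). In KO Camk2a libraries it was higher in V1, at 33.8, 55.0 and 72.0 CPM against 29.7, 39.3 and 43.6 CPM in S1 (0.54, SE 0.145, adjusted p = 0.0234). The WT Camk2a difference was 0.39 (SE 0.21, adjusted p = 0.298).

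The difference itself was tested as an interaction of class and area, a test chosen after the data had been seen and fitted without the animal. For Gabra5 it was -0.97 (SE 0.25, adjusted p = 0.0385) in WT and -1.003 (SE 0.175, adjusted p = 3.88e-04) in KO. None of the other members was called in either by edgeR, though Gabra3 and Gabra4 had an unadjusted p under 0.05 in KO, and the share called among all genes was 1.54% in WT and 4.12% in KO. In WT the genes called, 263, became 1068 without P9, P22 and P24, 992 without C24 and 83 without C3, C18 and C19. Without P9, P22 and P24 the values were -1.17 (adjusted p = 0.00136) and -1.197 (adjusted p = 1.28e-05). Without C3, C18 and C19 the WT value was -1.01 and missed the threshold (adjusted p = 0.0666), and Gabra3 was called in KO (0.36, adjusted p = 0.00626). Within animals, S1 exceeded V1 in 9 of 10 WT and 7 of 9 KO PV animals, and V1 exceeded S1 in 4 of 7 WT and 6 of 6 KO Camk2a animals. For this interaction, limma-voom with the animal as a replicate block called 1 member in WT and 1 in KO.

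**Figure D4:**
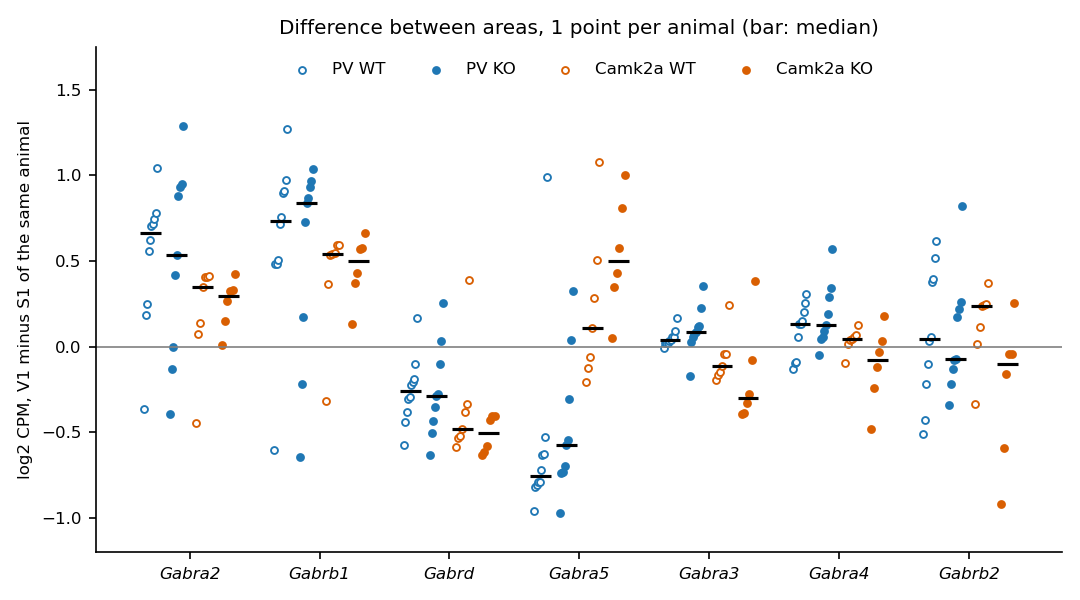
Log2 CPM of V1 minus S1 in each animal with both areas (points), with the median of each class and genotype as a bar. Gabra2 and Gabrb1 have medians above 0 and Gabrd below 0 in all 4 sets, while Gabra5 medians are -0.75 and -0.57 in PV and 0.11 and 0.50 in Camk2a animals.

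Marker levels moved with area as well. In WT PV libraries the excitatory markers had a median sum of 1667 CPM in V1 and 1359 CPM in S1, with 6 of 10 called higher in V1. In KO PV libraries the medians were 1578 and 1490 CPM, and edgeR called 0 of 10, with 0 at an unadjusted p under 0.05. Of 8 astrocyte markers, 5 were higher in V1 of WT PV and 2 in V1 of KO PV. In WT PV 4 of 4 oligodendrocyte precursor markers (median 0.76), 3 of 6 microglia markers (0.49) and 3 of 6 vascular markers (0.58) were higher in V1 as well. In KO Camk2a libraries, 3 of 8 deep-layer markers were higher and 1 lower in V1, and 3 of 4 layer 4 markers were lower. The median sums were 462 CPM (V1) and 352 CPM (S1) for deep layers and 232 and 354 CPM for layer 4. In WT Camk2a libraries these sums were 425 and 317 CPM, and 247 and 357 CPM. There edgeR called 0 of either list, with 3 of 8 deep-layer and 3 of 4 layer 4 markers at an unadjusted p under 0.05. In PV libraries 4 of 8 deep-layer markers were called higher in V1 in WT and 2 in KO, and 0 of 4 layer 4 markers in either. Their part in the subunit differences was not tested. In these bulk precipitates, fewer cells of a type and less RNA per cell cannot be told apart.

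The anchoring and trafficking genes gave 3 higher and 5 lower of 21 in V1 of WT PV libraries, with a median of -0.07. Of all genes, 20.6% were called in that comparison. Shisa7 (0.68), an auxiliary subunit of the receptor, Hap1 (0.36) and Dmd (0.29), dystrophin, were higher, and Zdhhc3 (-0.23), a palmitoyl transferase of gamma subunits, Ubqln1 (-0.13) and Iqsec3 (-0.23) led the lower ones. In KO PV Hap1 was higher and Iqsec3 and Zdhhc3 were lower, and in KO Camk2a Hap1 (0.90) and Shisa7 (0.37) were higher and Zdhhc3 (-0.20) lower. In WT Camk2a edgeR called 0, with 4 at an unadjusted p under 0.05. Of Gabrg1, Gabrg3 and Gabrq, where tested, edgeR called 0 between areas, with an unadjusted p under 0.05 for 1, Gabrg1 in WT PV (-0.44, SE 0.21).

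The KO and WT groups were compared by class and area, and over animals with both areas after summing the 2 libraries of each. Of the 7 members, edgeR called 1, Gabra5 in the summed PV animals. In PV V1 it called 0, with 0 at an unadjusted p under 0.05, and in PV S1 0, with 3 (Gabra2, Gabra3 and Gabra5). The share called among all genes was 0.191% in PV V1, 0.77% in PV S1, 1.36% in PV animals, 1.4% in Camk2a V1, 4.09% in Camk2a S1 and 4.06% in Camk2a animals. Without C3, C18 and C19 the genes called fell from 222 to 15 in Camk2a V1, from 641 to 299 in Camk2a S1 and from 679 to 131 in Camk2a animals. Without C24 they rose to 355, 1634 and 1347. Without P9, P22 and P24 those in PV S1 fell from 122 to 81 and those in PV animals from 234 to 81. The members' medians were 0.01, -0.02, 0.03, -0.11, -0.10 and -0.04, and those of all genes were within 0.01 of 0.

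Gabra5 ran from 12.1 to 15.0 CPM (median 13.5) in the 10 WT and from 9.41 to 13.3 CPM (median 11.7) in the 9 KO summed PV animals. All 9 KO animals lay below the WT mean, though the ranges overlapped. The log2 difference was -0.27 (SE 0.06, adjusted p = 0.0195). It was called with each animal left out in turn (adjusted p 0.0133 to 0.0448), and missed the threshold without P9, P22 and P24 (-0.29, adjusted p = 0.0506) and with limma-voom and the animal as a random block over single libraries (-0.25, adjusted p = 0.191). In the PV libraries of S1 alone the difference was -0.32 (SE 0.09, adjusted p = 0.093), and in those of V1 it was -0.21 (SE 0.14, adjusted p = 0.789). In PV animals the excitatory markers had a median log2 difference of 0.00, and edgeR called 0 of 10, with 1 at an unadjusted p under 0.05. The PV S1 value of Gabra5 was called without P22 alone (adjusted p = 0.00343), without P9, P22 and P24 (-0.34, adjusted p = 0.0196) and by DESeq2 (adjusted p = 0.0305).

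The same subunit differed by -0.04 (SE 0.16, adjusted p = 0.911) between genotypes in Camk2a animals. Between the classes, its genotype effect differed by -0.23 (SE 0.15, adjusted p = 0.559). None of the 7 members was called in that test by edgeR or DESeq2, and 0 had an unadjusted p under 0.05. Among all genes 0.832% were called, 146 genes, which became 268 without C24, 92 without C3, C18 and C19 and 74 without P9, P22 and P24. The genotype effect was not found to differ between areas either: 0 members were called in PV or Camk2a by edgeR, DESeq2 or limma-voom, 0 had an unadjusted p under 0.05, and edgeR called 0% of all genes in PV and 0% in Camk2a, with 312 and 608 genes at an unadjusted p under 0.05. DESeq2 and limma-voom called 0 genes in PV and 1 in Camk2a.

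In Camk2a neurons edgeR called 0 members in V1, S1 or summed animals. Those with an unadjusted p under 0.05 numbered 3 in V1 (Gabra3, Gabrb1 and Gabrd), 1 in S1 (Gabrb2) and 2 in summed animals (Gabra3 and Gabrb1). Gabra3 ran from 115 to 121 CPM in the 7 WT animals, whose spread was small (SD 2.14), and had a median of 103 CPM with a range of 100.2 to 121 CPM in the 6 KO animals. Its difference was -0.16 (SE 0.04, adjusted p = 0.0606), with 5 of 6 KO animals below the WT mean and C3 the highest. DESeq2 called it (adjusted p = 0.00971), and edgeR did without C3 (adjusted p = 0.0487). Gabrb1 was higher than the WT mean in 6 of 6 KO animals (0.19, SE 0.08, adjusted p = 0.167), and without C24 it was called (0.24, adjusted p = 0.0361). In V1 alone Gabrb1 held 143 to 164 CPM in KO and 120 to 151 CPM in WT (0.18, SE 0.05, adjusted p = 0.091), called by DESeq2 (adjusted p = 0.0197) and by edgeR without C6 (adjusted p = 0.0429). Gabra3 in V1 (-0.23) was called without C3 (adjusted p = 0.0497). The PV markers in these Camk2a libraries had median log2 differences between KO and WT of -1.11 in V1, -0.76 in S1 and -0.99 in animals, with 0 of 12 called and 0 at an unadjusted p under 0.05 in each. Aldoc, an astrocyte marker, was called lower in KO in all 3, Aldh1l1, another, in V1 and animals, and Mbp, a myelin gene, in S1 and animals. Most other astrocyte markers did not go lower: 6, 4 and 6 of 8 had a positive difference in V1, S1 and animals. The list medians were 0.15, 0.03 and 0.14. Without C3, C18 and C19, the difference in animals was -0.17 for Gabra3 (adjusted p = 0.144) and 0.18 for Gabrb1 (adjusted p = 0.315), and that of Gabrd went from -0.16 to -0.06. The part of the astrocyte and myelin genes was not tested.

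**Figure D5:**
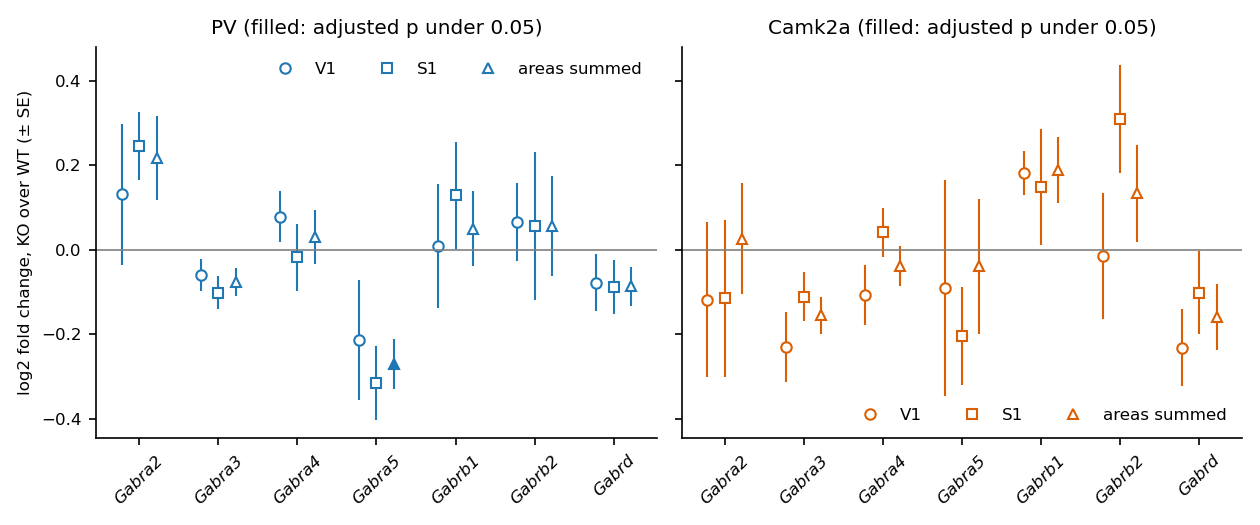
Log2 fold change (KO over WT, with SE) of each subunit in V1, in S1 and in animals with both areas summed, for PV (left) and Camk2a (right) libraries. The 1 filled point is Gabra5 in summed PV animals at -0.27, and all other differences lie between -0.32 and 0.31.

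Other members with an unadjusted p under 0.05 were not called. Gabra2 in PV S1 held 16.4, 21.2 and 27.6 CPM in KO and 16.02, 17.8 and 19.6 CPM in WT (0.25, SE 0.08, adjusted p = 0.17). Gabrb2 in Camk2a S1 held 118, 126 and 190 CPM in KO and 84.8, 115 and 124 CPM in WT (0.31, SE 0.13, adjusted p = 0.168), with 7 of 7 KO libraries above the WT mean. Gabrd in Camk2a V1 held 60.2, 69.8 and 84.1 CPM in KO and 67.6, 78.4 and 96.5 CPM in WT (-0.23, SE 0.09, adjusted p = 0.192). The groups overlapped for all 3. In PV V1, Gabrb2 held 186 to 282 CPM in WT and 186 to 276 CPM in KO (log2 difference 0.07, SE 0.09). Gabra4 held 98.8 to 127 and 104 to 132 CPM (0.08, SE 0.06). Gabrd held 204 to 262 and 184 to 273 CPM (-0.08, SE 0.07). Gabra2 was higher in KO PV animals by 0.22 (SE 0.10, adjusted p = 0.383). Of the 21 anchoring and trafficking genes, edgeR called 0 in PV V1, S1 and animals, with 1, 2 and 3 at an unadjusted p under 0.05. In Camk2a S1, Dmd (0.38, adjusted p = 0.00699) and Slitrk3 (0.25, adjusted p = 0.0479), a synaptic adhesion protein of inhibitory synapses, were higher in KO and Hap1 was lower (-0.41, adjusted p = 0.0043), with 3 of 21 called. Of all genes, 4.09% were called in Camk2a S1. Dmd was also called in the summed Camk2a animals (0.29, adjusted p = 0.0452).

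Within a class, after the group means and sex had been taken out, the members varied together in part. In 40 PV libraries Gabra4 and Gabrb2 had a Pearson r of 0.87, and Gabrb1 had 0.61 with Gabra2, -0.65 with Gabra5 and -0.77 with Gabrd. In 29 Camk2a libraries Gabra4 and Gabrb2 had 0.57, Gabrb1 had 0.49 with Gabra2 and -0.53 with Gabrd, and Gabra5 had 0.19 with Gabrb1. These are descriptions: libraries of an animal share that animal, and a library that stands on the side of the other area moves all members that differ by area. Among 10541 genes of at least 5 CPM in PV, the closest to Gabrb2 were Klhl11, Plcxd3 and Faxc (r = 0.96 each), to Gabrb1 Amer2 (0.93), Efna5 and Plppr4 (0.90 each), to Gabra4 Vstm2a (0.91), Klf12 and Lrrtm2 (0.89 each), and to Gabrd Ankrd35 (0.88), Kcns1 (0.85) and Klc2 (0.83). Those closest to Gabra5 were Chn1, Sphk1 and Spp1 (0.85 each), to Gabra2 Cplx2 (0.79), B930095G15Rik and Fcgr2b (0.78 each), and Lancl2 (0.74) and Elmod1 (0.70) were among the closest to Gabra3. In Camk2a libraries, over 10428 genes, the highest r was with Tnks for Gabrb2 (0.93, then Faxc and Hs6st3 at 0.92), Ksr1 for Gabra5 (0.89, then Nhsl1 at 0.89 and Matn2 at 0.88) and Abcb9 for Gabrd (0.88, then Fgf9 and Hapln4 at 0.86). For Gabrb1 it was with Gucy1b1, Gria3 (0.87 each) and Grm5 (0.85), for Gabra2 with Gga2 (0.87; Calr, at 0.83, was also among the closest), for Gabra3 with Phactr2 (0.85), Htr2a (0.79) and Pld5 (0.76), and for Gabra4 with Slitrk4 (0.85), Ttll7 (0.83) and Sgtb (0.80). Faxc was among the 3 closest to Gabrb2 in both classes.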

How the data were processed

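The authors deposited 1 table of estimated counts per gene, with a column per library and no normalization. The submitters' processing notes name STAR, Salmon, limma and mm10. Their roles and versions, and the annotation, are not given in the sources used here. Of the deposited values, 71.1% were not whole, and counts were rounded. GENCODE M21 named 17614 genes. Samples were grouped by the labels.

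The robust quasi-likelihood test of edgeR 4.0.16 (R 4.3.3) was used with sex as a covariate, after filterByExpr and TMM scaling. It was fitted per comparison on all genes, and Benjamini-Hochberg adjustment covered them. This test gives no SE of its own. The SE printed with its values is the absolute log2 difference divided by the square root of the test's F statistic. The animal was not in the main fits between areas or of interactions with area. DESeq2 1.42.0 and limma 3.58.1 served alternatives. CPM used plain library totals. The fits were tested on simulated data, with each library drawn independently. That test does not cover the pairing of libraries within an animal. Library totals were 27.6 to 49.1 M, per the deposited counts. Reads without molecular identifiers are not independent molecules.

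The members and lists were chosen with earlier results of these data known. All 7 members, Fmr1 and, for likeness, the 3 genes of highest r per member and class are named, with up to 3 called genes per list, comparison and direction of smallest p. The interaction of class and area was added after the data were seen. Some subunits and some genes under this rule are not reported here. Libraries of both areas of an animal are paired by its code in the labels. The deviations of such pairs from their group means correlated with a median r of 0.44, 0.17, 0.52 and 0.53 in WT PV, KO PV, WT Camk2a and KO Camk2a.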

Additional observations from a re-analysis of the deposited data

Results flagged for a closer look

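The area difference of Gabra5 (V1 minus S1) differed between PV and Camk2a libraries, by a log2 value of -0.97 in WT and -1.003 in KO, by a test of that difference in edgeR. In PV libraries Gabra5 was lower in V1, and in KO Camk2a libraries it was higher.

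In 56 sets of libraries (7 subunits in 8 groups), 13 held a single library far from the others of its group, by the gap to the nearest library relative to the range of the group (Dixon's test). Such a test flags about 1 in 20 groups by chance, and the 56 sets are not independent, since the same libraries recur in them. P22 had the highest Gabra5 of PV WT V1 (19.5 CPM) and the lowest of PV WT S1 (9.8 CPM), and it is an animal whose 2 libraries lay on the side of the other area. P23 had the highest Gabra5 of PV KO S1 (17.2 CPM). P25 had the lowest Gabra4 (70.4 CPM) and the highest Gabrd (328.8 CPM) of PV KO S1. C24 had the highest Gabra3 of Camk2a WT V1 (125.8 CPM) and the highest Gabra5 (62.6 CPM) and Gabrb1 (160.7 CPM) of Camk2a WT S1. C4 had the highest Gabra2 (105.4 CPM), Gabrb1 (148.5 CPM) and Gabrb2 (190.3 CPM) of Camk2a KO S1. C1 had the highest Gabra2 of Camk2a WT V1 (150.5 CPM), and C3 the highest Gabra3 of Camk2a KO V1 (137.8 CPM).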

How the results depend on the processing

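Members called in a comparison were recomputed with RLE size factors, no filter on low counts, DESeq2, no sex term, sex by Y-linked genes and limma-voom, with animals left out, and with the animal as a replicate block. Of 272 such values, 266 stayed called, 6 were no longer called and 0 reversed. The pooled count includes the comparisons between classes, where 74.3 to 77.7% of all genes were called and no member's call changed. All 6 losses were in comparisons of genotype, area or their interactions. Of 1331 values of members not called, 21 were called, and 42 had another sign, 3 of them beyond 0.1. The number of members called between genotypes moved from 0 to 1 in PV S1 (DESeq2; without P9, P22 and P24), in Camk2a V1 (DESeq2) and in Camk2a animals (DESeq2; without C24), and from 1 to 0 in PV animals (without P9, P22 and P24; limma-voom with the animal as a replicate block). Leaving out 1 library or animal gave 0 to 1 called in PV S1, Camk2a V1 and Camk2a animals. Between areas, 3 became 0 in KO PV with the animal as a replicate block (adjusted p 0.0706 for Gabra5, 0.0778 for Gabrd and 0.122 for Gabrb1), where that block called 0 genes of the whole table against 1218 without it, and 0 became 2 with DESeq2, 1 with no sex term and 3 without C24 in WT Camk2a. The block added Gabra2 in KO Camk2a and changed no other call of a member. For the interaction of class and area, added after the data were seen, 1 became 0 in WT and 2 in KO without C3, C18 and C19. Why these values moved was not tested. Over all genes DESeq2 called 113, 308, 469, 870, 1450 and 1728 genes between genotypes, against 31, 122, 234, 222, 641 and 679 with edgeR (PV V1, S1 and animals, then Camk2a). Between areas of WT Camk2a it called 1371 against 56, and edgeR called 3405 without C24 and 0 without C3, C18 and C19. C24 enters no KO comparison, so leaving it out gave no value there. Precision rests on 6 to 10 animals a group.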
